A study of Mus musculus with 42 samples.

Results

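The beta-defensins Defb3 and Defb1, the protease inhibitor Slpi, the lipocalin Lcn2, and Ltf, Camp and Pglyrp1 were followed through mouse skin carcinogenesis as genes of epithelial and neutrophil antimicrobial defence. Lcn2, Ltf, Camp and Pglyrp1 encode proteins stored in neutrophil granules. They were chosen by gene symbol, 7 of the 14442 symbols on the first of 2 array designs and 7 of the 17501 on the second, and each had 1 probe per design. RNA of whole tissue was hybridised on 2-colour oligonucleotide arrays against a universal mouse reference RNA, a commercial pool, so every value is a log2 ratio of sample over reference and a level below 0 means less RNA of that gene than in the pool. The sign of the ratio is the likely one, taken from marker genes, since the labels do not state it. The first design held 6 squamous cell carcinomas, 10 papillomas labelled high risk, 10 arrays of papillomas labelled low risk, and 6 normal skins. All tumours came from female Sencar mice, a strain bred for sensitivity to skin carcinogenesis, which had been initiated with DMBA at 7 to 8 weeks of age and promoted with TPA. The normal skins were untreated and adult, and their strain, sex and age in weeks are not given in the sources used here. They therefore differed from the tumours in treatment and possibly in strain, age and sex. The labels do not define the risk classes. Another 10 papillomas from female Sencar mice under the same agents, labelled as unknown, lay on the second design.

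Beta-defensins are small cationic peptides that epithelia secrete onto their surface, where they permeabilise microbes and attract immune cells. In skin some are made at rest and others are switched on by interleukins, microbial products or injury. Neutrophils carry a second arsenal in preformed granules, which includes the iron-binding proteins lactoferrin and lipocalin 2, the cathelicidin precursor and a peptidoglycan-recognition protein. Inflamed keratinocytes can make several of these proteins too, so in whole skin their RNA may come from either source.

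The labels and values of some arrays limited every comparison. The labels conflict on some low-risk arrays. By their titles arrays 1 and 3 are different papillomas, but the sample name of array 3 gives papilloma 1 with the dyes swapped and that of array 10 gives papilloma 3. Arrays 1 and 3 were averaged, which left 9 low-risk replicates and 31 replicates in all, although they correlated at only 0.306 across probes. Normal skin 1 and carcinoma 6 correlated at 0.984 with a median absolute difference of 0.065 across 16718 probes, against 0.177 for the next closest pair of arrays, so the differences these arrays enter were also computed without both. The labelled arrays were clustered by the pattern of probes left blank into 5 sets, a number fixed beforehand, named A to E here. Correlations of these patterns ran between 0.13 and 0.71 within sets and between -0.10 and 0.28 across sets, so the 2 ranges overlapped. The sets did not hold the groups evenly. Set A held 1 high-risk papilloma and 4 normal skins, B 7 low-risk arrays, C 2 carcinomas, 4 high-risk papillomas and 1 normal skin, D 4 carcinomas, 1 high-risk papilloma, 3 low-risk papillomas and 1 normal skin, and E 4 high-risk papillomas. The median SD of the arrays of a set ran between 0.70 and 1.59, so the scale of the ratios also followed the sets. The mean of 10 keratinocyte markers was above 0 in every sample, at 0.66 to 1.48 in carcinomas, 0.92 to 2.82 in high-risk papillomas, 0.97 to 2.82 in low-risk papillomas and 1.10 to 1.95 in normal skin. The sign of the ratios was itself inferred with keratinocyte markers, so a mean above 0 is not an independent result.

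Defb3 is an inducible beta-defensin. In carcinomas its log2 level had a lowest value of 0.20, a median of 1.27 and a highest value of 2.95. In high-risk papillomas the lowest, median and highest of 8 measured samples were 0.21, 3.61 and 6.96, and 2 samples had no value. In low-risk papillomas they were 0.43, 5.40 and 6.50. Normal skin gave 2.92 in sample 1, and -0.22, 0.05, 0.05 and -0.28 in samples 3 to 6, with no value in sample 2. All but 1 of the 9 low-risk papillomas lay above every normal skin and every carcinoma, and low-risk papilloma 2 lay among them, at 0.43. The high-risk papillomas split, with 5 samples at 3.29 or above and 3 at 1.70 or below.

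Set against normal skin, low-risk papillomas averaged 5.09 ± 1.87 (SD, n = 9) and normal skin 0.51 ± 1.36 (SD, n = 5), a difference of 4.58 ± 0.98 (SE) or 23.97-fold (limma, adjusted p = 0.00493 over 18904 probes). Carcinomas averaged 1.40 ± 0.98 (SD, n = 6), which was 3.69 ± 0.93 (SE) lower than in low-risk papillomas, or 12.9-fold (limma, adjusted p = 0.0443). All 6 carcinomas lay below the low-risk mean. Carcinomas against normal skin differed by 0.89 ± 1.06 (SE), which did not pass (limma adjusted p = 0.876). High-risk papillomas averaged 3.62 ± 2.54 (SD, n = 8), between the other tumour groups, and none of their differences passed: 3.12 ± 1.00 (SE) against normal skin with a limma adjusted p of 0.0668, -1.47 ± 0.85 against low-risk papillomas, and in the comparison of carcinomas against high-risk papillomas -2.22 ± 0.95. In whole tissue, fewer cells of a type and less RNA per cell cannot be told apart.

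Array set and Defb3 moved together in part. All 4 carcinomas of set D, at 0.20 to 1.48, lay below its 3 low-risk papillomas, at 5.07 to 5.87, and below its single high-risk papilloma, at 5.76. A limma fit of set D alone gave a difference of -4.53 ± 0.35 (SE) for carcinomas against low-risk papillomas (adjusted p = 0.00543), so the difference was as large within that set as over all arrays. The high-risk split followed the sets, with the 4 papillomas of set E at 3.29 to 6.96, those of set C at 0.21 and 1.70 and that of set A at 0.93. With the set as a block in the fit, the Defb3 difference was -3.85 ± 1.17 (SE) for carcinomas against low-risk papillomas (limma adjusted p = 0.356) and 2.64 ± 1.80 for low-risk papillomas against normal skin (adjusted p = 0.875). Of all probes, the block fit called 1 of 18895 in the first comparison and 2 of 18892 in the second. Without the block 212 and 1427 of 18904 were called. No set gave a Defb3 value for both low-risk papillomas and normal skin, so for that comparison set and group could not be compared within a set. Without normal skin 1 and carcinoma 6, the difference of high-risk papillomas against normal skin was 3.72 ± 1.05 (SE) and passed the test (limma adjusted p = 0.0292), that of low-risk papillomas was 5.19 ± 1.03 (adjusted p = 0.00206), and that of carcinomas against low-risk papillomas was -4.0 ± 0.95 (adjusted p = 0.0453).

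The call in carcinomas against low-risk papillomas was close to the threshold and held in 11 of 16 other processing settings that tested it. It held in 15 of the 31 fits that left out 1 replicate, with adjusted p between 0.0102 and 0.12. It was lost without any 1 of the 6 carcinomas, of low-risk papillomas 1, 4, 5, 7, 8 and 10, or of normal skins 3, 4, 5 and 6. Leaving out low-risk papilloma 2, the low sample, gave -4.27 (adjusted p = 0.0102). The call against normal skin in low-risk papillomas held in all 31 such fits, with adjusted p between 0.000805 and 0.0208.

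Defb1, the beta-defensin that skin makes at rest, was measured in too few samples for the fit. It had a value in 2 of 6 carcinomas, 5 of 10 high-risk papillomas, 6 of 9 low-risk papillomas and 5 of 6 normal skins. The carcinoma values were -0.10 and 1.57. High-risk papillomas gave -0.13, 0.04, 1.08, -0.32 and 0.57, and low-risk papillomas ran between 0.47 and 2.67 with a median of 0.93. Normal skin gave 1.63, 1.23, 0.14, -0.11 and 0.53. The groups overlapped throughout, and the low-risk papillomas alone had no value below 0. All 6 low-risk values came from array set B and those of the other groups from sets A and C. For Defb1, low-risk papillomas and array set therefore cannot be told apart. The 3 exact two-sided permutation tests gave -0.93 for high-risk against low-risk papillomas (p = 0.0563, 0.169 after adjustment over the 3), 0.50 for low-risk papillomas against normal skin (p = 0.351 before and after adjustment) and -0.43 for high-risk papillomas against normal skin (p = 0.31, adjusted 0.351). None passed, and carcinomas were not tested. Without normal skin 1, a test chosen after seeing the data, the differences against normal skin were 0.74 in low-risk papillomas (exact permutation p = 0.181) and -0.20 in high-risk papillomas (exact permutation p = 0.587).

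Slpi encodes secretory leukocyte protease inhibitor, a product of epithelia that blocks neutrophil elastase and cathepsin G and also kills bacteria. Its lowest, median and highest log2 levels were 1.17, 3.11 and 4.58 in carcinomas, 0.27, 2.48 and 4.80 in 8 high-risk papillomas, and 2.80, 3.88 and 6.24 in low-risk papillomas. Normal skin gave 3.80 in sample 1, and 0.20, -0.10, -0.35 and -1.02 in samples 3 to 6. Every measured tumour was above 0 and above those last 4 normal skins, and normal skin 1 lay among the tumours.

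Low-risk papillomas averaged 4.10 ± 1.28 (SD, n = 9) and normal skin 0.50 ± 1.89 (SD, n = 5), so Slpi was higher by 3.60 ± 0.75 (SE), or 12.1-fold (limma, adjusted p = 0.00421). Carcinomas, at 3.01 ± 1.23 (SD, n = 6), differed from normal skin by 2.50 ± 0.82 (SE, limma adjusted p = 0.151), and high-risk papillomas, at 2.43 ± 1.45 (SD, n = 8), by 1.92 ± 0.77 (adjusted p = 0.148). Both differences passed once normal skin 1 and carcinoma 6 were left out, at 3.01 ± 0.77 (SE) in carcinomas (limma adjusted p = 0.0315) and 2.75 ± 0.70 in high-risk papillomas (adjusted p = 0.0167), while that in low-risk papillomas was 4.42 ± 0.69 (adjusted p = 0.000224). Normal skin 1 alone made that change, since without it the values were 3.32 in carcinomas (adjusted p = 0.0123) and 2.75 in high-risk papillomas (adjusted p = 0.018). With a block for the array set no Slpi difference passed, and the low-risk value was 1.77 ± 1.47 (SE, limma adjusted p = 0.912). The block fit called 2 of 18892 probes in that comparison, against 1427 of 18904 without the block. Of 15 other processing settings 13 kept the low-risk call, and besides the block scale normalization lost it. Within set A the lone high-risk papilloma, number 10, was at 2.65 and the 4 normal skins at -1.02 to 0.20. Within set C, by contrast, high-risk papillomas 8 and 9 were at 0.80 and 0.27 beside normal skin 1 at 3.80. Between tumour groups Slpi did not pass: -1.10 ± 0.71 (SE) for carcinomas against low-risk papillomas, 0.58 ± 0.73 for carcinomas against high-risk papillomas and -1.67 ± 0.65 for high-risk against low-risk papillomas, with limma adjusted p of 0.464, 0.807 and 0.185.

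**Figure D1:**
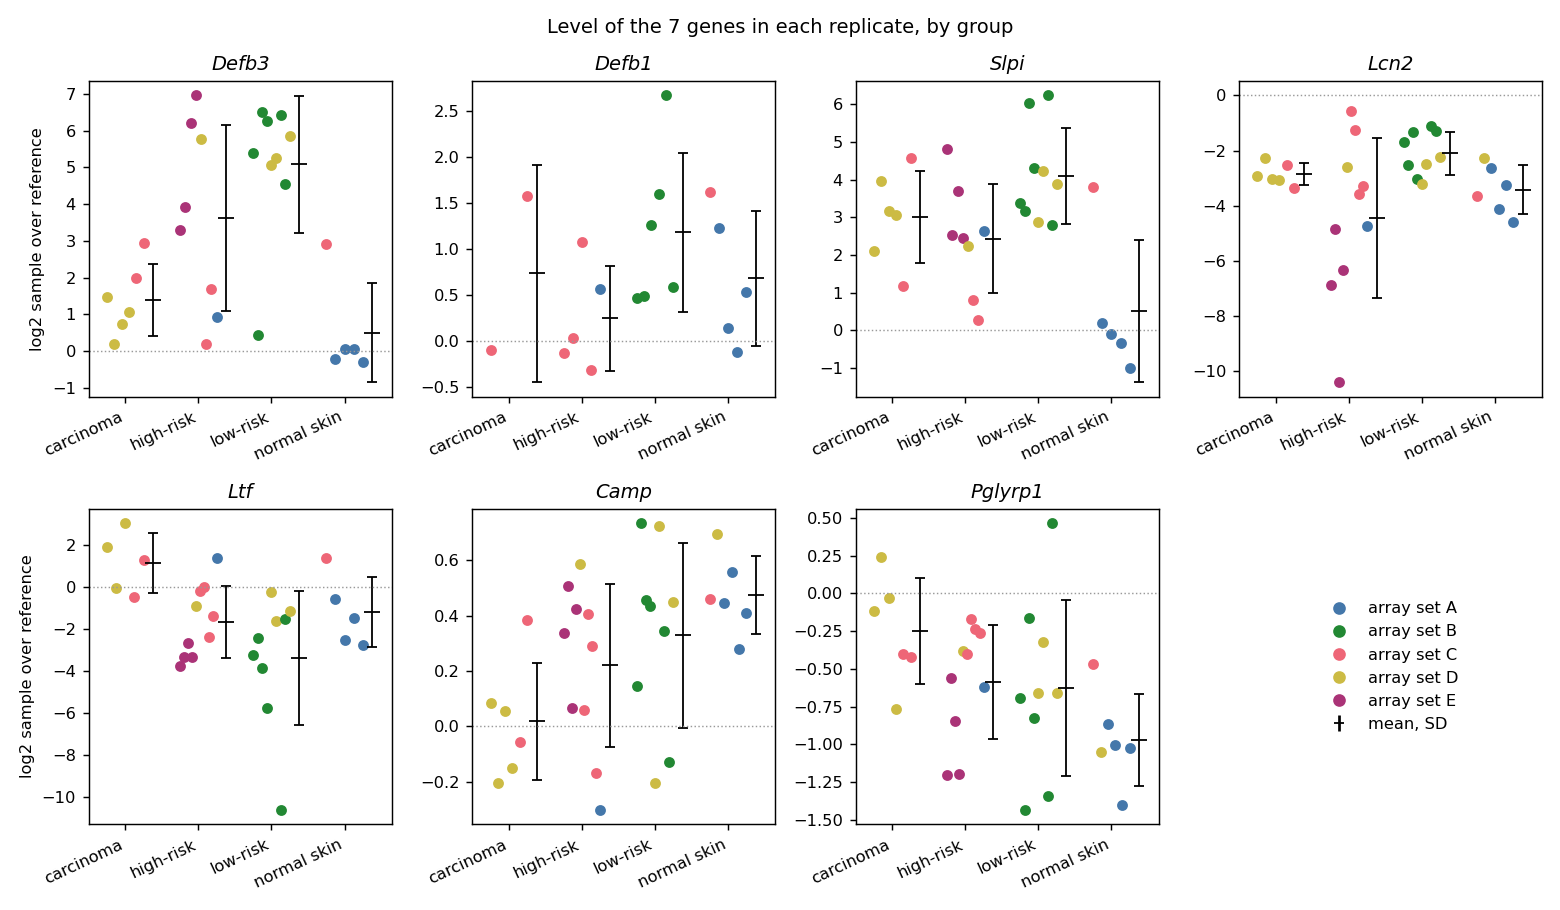
The log2 ratio of sample over reference of each gene (y axis) is plotted for every replicate with a value, by group (x axis) and coloured by array set, with the mean and SD of each group beside the points. Low-risk papillomas lie highest for Defb3, with 8 of 9 between 4.56 and 6.50, and normal skin 1 stands apart from the other normal skins for Defb3 at 2.92 and Slpi at 3.80.

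Defb3 and Slpi are shown with the 150 bases upstream of their RefSeq gene start, because they are the members called against normal skin, and Ltf because its means ran the other way among the tumours (GRCm38.p6, 5′ to 3′ on the gene's strand). Capitals mark matches to TATANA or TTNNGNAA on either strand.
Defb3, chr8:19293211-19293360, plus strand: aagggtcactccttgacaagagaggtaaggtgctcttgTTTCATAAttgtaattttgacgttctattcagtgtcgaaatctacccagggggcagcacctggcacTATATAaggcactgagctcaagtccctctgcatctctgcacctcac
Slpi, chr2:164356508-164356657, minus strand: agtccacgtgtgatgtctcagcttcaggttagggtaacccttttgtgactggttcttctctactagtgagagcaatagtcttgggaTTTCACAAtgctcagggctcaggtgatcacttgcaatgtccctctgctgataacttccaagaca
Ltf, chr9:111019142-111019291, plus strand: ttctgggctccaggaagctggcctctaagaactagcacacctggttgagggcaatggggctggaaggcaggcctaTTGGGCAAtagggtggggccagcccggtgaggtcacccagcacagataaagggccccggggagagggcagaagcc
TATANA is a form of the TATA box, and 22.6% of the 32851 promoters in the RefSeq table hold it in the 250 bases before their start. Defb3 had it 46 bases before the start. TTNNGNAA is a form of the C/EBP site, held by 36.8% of promoters, and it occurred in Defb3 at 179 and 112 bases, in Slpi at 241, 223 and 64, in Ltf at 217 and 75, and in Lcn2 at 216. TGANTCA, the AP-1 site held by 6.75% of promoters, was found in no member. The NF-kB site, held by 3.90%, was found in Pglyrp1 alone, 93 bases before its start, and Camp held none of the 4 motifs. No matches overlapped, both strands were read, and 6 of the 7 members had a promoter in the table. The motif letters were chosen with these sequences in view, and a match is a description of letters only.

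Lcn2 encodes lipocalin 2, which withholds iron from bacteria by binding their siderophores. Its level was below 0 in all 31 replicates, where the value of low-risk papilloma 1 is the mean of -3.47 on array 1 and 0.10 on array 3. The lowest, median and highest levels were -3.36, -2.97 and -2.27 in carcinomas, -10.40, -4.15 and -0.57 in high-risk papillomas, -3.22, -2.24 and -1.10 in low-risk papillomas, and -4.60, -3.44 and -2.28 in normal skin. Means were -2.86 ± 0.40 (SD, n = 6) in carcinomas, -4.44 ± 2.90 (SD, n = 10) in high-risk papillomas, -2.10 ± 0.78 (SD, n = 9) in low-risk papillomas and -3.42 ± 0.88 (SD, n = 6) in normal skin. The order from high to low was low-risk papilloma, carcinoma, normal skin, high-risk papilloma, and no neighbours in that order passed the limma test. The same held for the orders of Defb3 (low-risk papilloma, high-risk papilloma, carcinoma, normal skin), Slpi (low-risk papilloma, carcinoma, high-risk papilloma, normal skin) and Ltf (carcinoma, normal skin, high-risk papilloma, low-risk papilloma).

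The widest Lcn2 difference, high-risk against low-risk papillomas, was -2.34 ± 0.77 (SE, limma adjusted p = 0.121), and 7 of 10 high-risk papillomas lay below all low-risk papillomas. Its test result changed with the scaling, and its values differed between array sets. Set E held only high-risk and set B only low-risk papillomas, so set and group cannot be told apart there. The 4 high-risk papillomas of set E were at -10.40 to -4.83, that of set A at -4.73, that of set D at -2.60 and those of set C at -3.57 to -0.57. The difference passed the limma test when the arrays' spreads were made equal by scale normalization, at -2.55 (adjusted p = 0.0215), or by quantile normalization, at -2.18 (adjusted p = 0.0429). With the set as a block it was 0.28 ± 0.95 (SE, adjusted p = 1.0), of the opposite sign. Under the same normalizations low-risk papillomas passed against normal skin, at 1.98 (scale, adjusted p = 0.0254) and 2.62 (quantile, adjusted p = 0.0034), against 1.32 ± 0.88 (SE, adjusted p = 0.384) on the scale as deposited.

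Ltf encodes lactoferrin, an iron-binding protein of the secondary granules and of secretions. Among carcinomas 5 of 6 had a value, 1.91, -0.04, 3.06, -0.45 and 1.31. The lowest, median and highest were -3.73, -1.87 and 1.39 in high-risk papillomas and -10.63, -2.41 and -0.20 in low-risk papillomas. Normal skin gave 1.39 in sample 1, and -0.54, -2.50, -1.48 and -2.74 in samples 3 to 6. All 9 low-risk papillomas were below 0, and 4 of the 5 carcinomas lay above every low-risk papilloma. The value of low-risk papilloma 1 is the mean of -1.63 on array 1 and -4.79 on array 3.

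Carcinomas averaged 1.16 ± 1.43 (SD, n = 5) and low-risk papillomas -3.36 ± 3.18 (SD, n = 9), a difference of 4.52 ± 1.17 (SE), or 23.0-fold, with a limma adjusted p of 0.0505, just beyond the threshold. It passed in 7 of the 31 fits without 1 replicate, which left out low-risk papilloma 6, 7 or 9, high-risk papilloma 1, 5 or 10, or normal skin 1, and in those 31 the adjusted p ran between 0.0203 and 0.163. Low-risk papilloma 8, at -10.63, lay farthest from the rest, and without it the difference was 3.61 (limma adjusted p = 0.0505). Without normal skin 1 and carcinoma 6 it was 4.48 ± 1.26 (SE, limma adjusted p = 0.082). Within set D, carcinomas at -0.04 to 3.06 lay above low-risk papillomas at -1.59 to -0.20, with a limma difference of 2.62 ± 0.73 (SE, adjusted p = 0.234). High-risk papillomas averaged -1.65 ± 1.71 (SD, n = 10), and carcinomas were 2.81 ± 1.15 (SE) above them (limma adjusted p = 0.391). Normal skin averaged -1.17 ± 1.68 (SD, n = 5), with no tumour group past the test against it. The direction of high-risk papillomas against normal skin, -0.47 ± 1.15 (SE, adjusted p = 0.869), turned to 0.17 without normal skin 1.

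Camp, the precursor of the only mouse cathelicidin, varied little. Its levels ran between -0.21 and 0.38 in carcinomas, -0.30 and 0.59 in high-risk papillomas, -0.21 and 0.73 in low-risk papillomas, and 0.28 and 0.70 in normal skin. Means were 0.02 ± 0.21 (SD, n = 6) in carcinomas, 0.22 ± 0.30 (SD, n = 10) in high-risk papillomas, 0.33 ± 0.33 (SD, n = 9) in low-risk papillomas and 0.47 ± 0.14 (SD, n = 6) in normal skin. In carcinomas 5 of 6 samples lay below all normal skins, with a difference of -0.46 ± 0.19 (SE) that did not pass (limma adjusted p = 0.314), nor did it without normal skin 1 and carcinoma 6, at -0.53 ± 0.21 (adjusted p = 0.216).

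Pglyrp1, which binds bacterial peptidoglycan, had the opposite order. Its levels ran between -0.77 and 0.24 in carcinomas, -1.20 and -0.17 in high-risk papillomas, -1.44 and 0.47 in low-risk papillomas, and -1.41 and -0.47 in normal skin. The value of low-risk papilloma 1 is the mean of -1.96 on array 1 and 0.575 on array 3. Means were -0.25 ± 0.35 (SD, n = 6) in carcinomas, -0.59 ± 0.38 (SD, n = 10) in high-risk papillomas, -0.63 ± 0.58 (SD, n = 9) in low-risk papillomas and -0.97 ± 0.30 (SD, n = 6) in normal skin. In carcinomas 5 of 6 samples lay above all normal skins, with a difference of 0.72 ± 0.26 (SE) that did not pass (limma adjusted p = 0.215), nor did it without normal skin 1 and carcinoma 6, at 0.86 ± 0.29 (adjusted p = 0.124). In the fit of all arrays neither Camp nor Pglyrp1 passed in any of the 6 comparisons. Among other processing settings Camp passed in 1 of 17 for carcinomas against low-risk papillomas and 1 of 18 for carcinomas against normal skin. Pglyrp1 passed against normal skin in 1 of 17 for low-risk papillomas, 1 of 19 for high-risk papillomas and 1 of 18 for carcinomas.

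Counted over the 6 members tested by limma, 1 was called in carcinomas against low-risk papillomas, where 1.12% of all probes were called, and 2 in low-risk papillomas against normal skin, where 7.55% were. No member was called in carcinomas against high-risk papillomas (0.0423% of all probes called), in high-risk against low-risk papillomas (0.667%), in high-risk papillomas against normal skin (5.01%) or in carcinomas against normal skin (1.16%). With so few members, these counts are a description. The median log2 difference of the 6 was -0.53 in carcinomas against low-risk papillomas, 0.46 in carcinomas against high-risk papillomas, -0.79 in high-risk against low-risk papillomas, 0.83 in low-risk papillomas against normal skin, 0.06 in high-risk papillomas against normal skin and 0.81 in carcinomas against normal skin. Over all probes tested the medians of these comparisons lay between -0.02 and 0.02. No pair of groups was fully separated for any member.

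**Figure D2:**
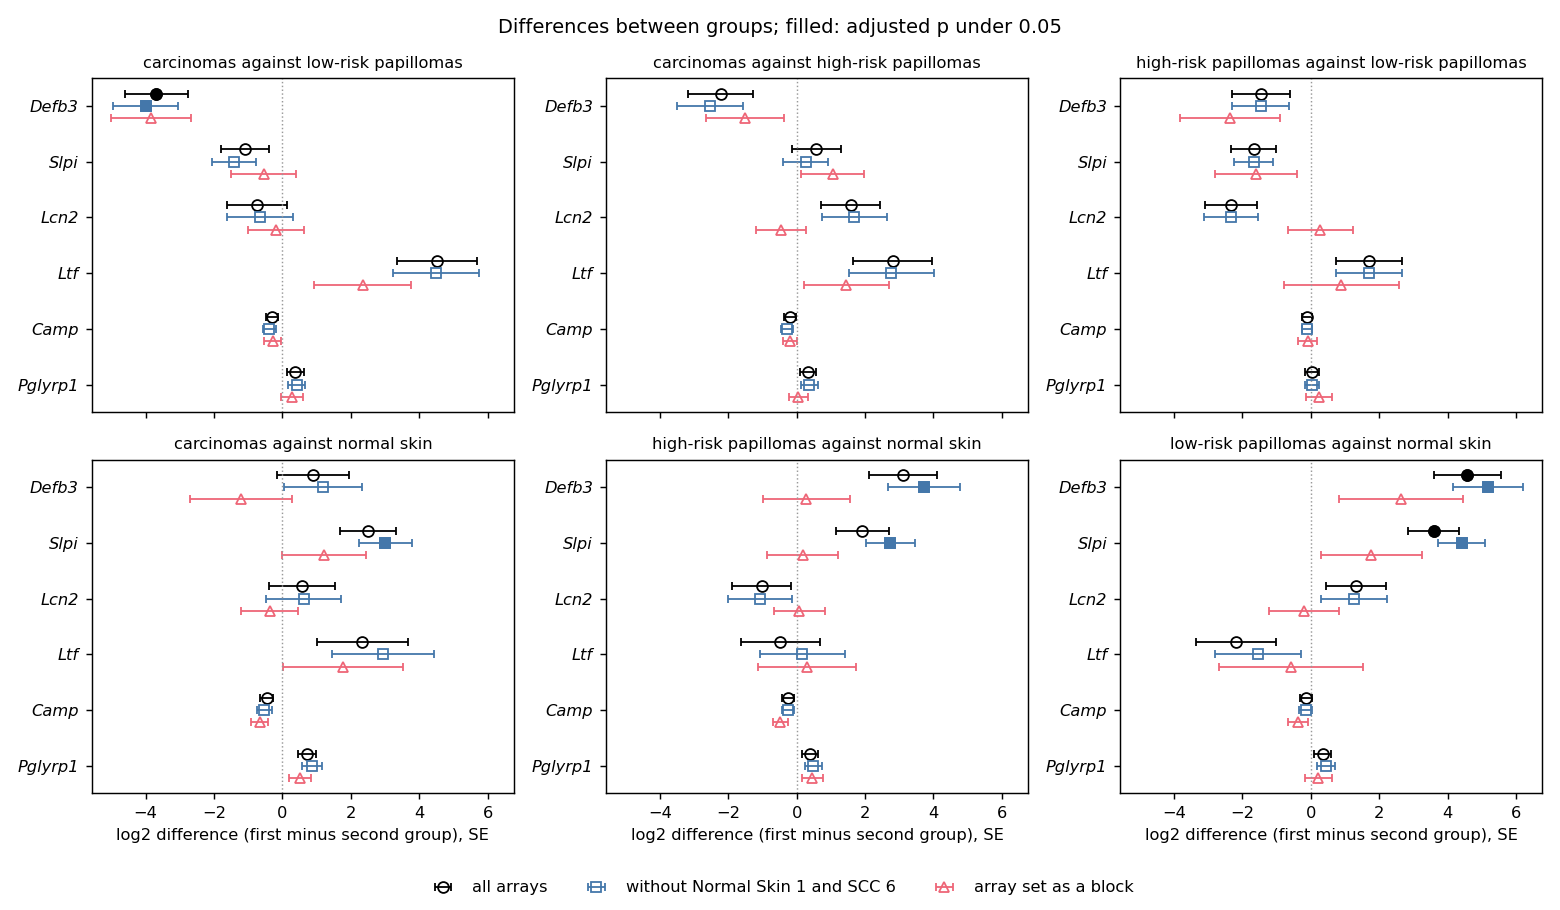
Each panel gives the log2 difference of the first minus the second named group (x axis, bars show the SE) for the 6 members tested (y axis), in the fit of all arrays, without normal skin 1 and carcinoma 6, and with a block for the array set. Filled symbols passed an adjusted p of 0.05. Over all arrays they are Defb3 in carcinomas against low-risk papillomas at -3.69 and Defb3 and Slpi in low-risk papillomas against normal skin at 4.58 and 3.60. Without normal skin 1 and carcinoma 6 they are Defb3 in the same comparisons and in high-risk papillomas against normal skin, and Slpi in each tumour group against normal skin. With the set as a block none is filled, in a fit that made only 0 to 12 calls over all probes per comparison.

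Other genes of these pathways were read from lists chosen with earlier results of these data known. Their counts are a description beside the share of all probes called in the same comparison. Of 25 other antimicrobial genes tested, 5 were called higher and 1 lower in low-risk papillomas against normal skin, where 7.55% of all probes were called. The calprotectin subunits rose most, S100a9 by 5.62 ± 0.47 (log2 difference, SE) and S100a8 by 4.47 ± 0.71, followed by the iron hormone gene Hamp by 3.21 ± 0.58, the beta-defensin Defb12 by 1.94 ± 0.42 and Wfdc12, a gene of the same protease-inhibitor family as Slpi, by 1.65 ± 0.42. Cxcl14, a chemokine gene of resting epidermis, fell by 1.41. In high-risk papillomas against normal skin (5.01% of all probes) 3 were higher (S100a9 by 6.18, S100a8 by 4.03 and Defb12 by 1.64) and 2 lower (Reg3b, a lectin gene, at -2.12 and Cxcl14 at -1.27). In carcinomas against normal skin (1.16%) S100a9 was higher by 4.35 and Reg3b lower at -2.29. Between tumour groups, Lyz1, a lysozyme gene, was higher at 2.14 and Hamp lower at -2.63 in carcinomas against low-risk papillomas (1.12%), and Hamp was lower at -2.07 in high-risk against low-risk papillomas (0.667%). Another beta-defensin gene, Defb4, differed by 1.72 in low-risk papillomas against normal skin and did not pass (limma adjusted p = 0.142).

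Neutrophil genes were followed because Lcn2, Ltf, Camp and Pglyrp1 are made in neutrophil precursors. Of 26 tested, 3 were called higher in low-risk papillomas against normal skin (7.55% of all probes), the stefin genes Stfa1 by 2.99 ± 0.72 (SE) and Stfa3 by 2.34 ± 0.63, and Ctsg, for cathepsin G, by 0.84 ± 0.24. With scale normalization Stfa1 was 1.37 (limma adjusted p = 0.443) and Stfa3 0.55 (adjusted p = 0.79) there, and with quantile normalization Stfa3 was 0.84 (adjusted p = 0.408). In high-risk papillomas against normal skin (5.01%) Stfa1 was higher by 3.52 and Stfa3 by 2.53, and in the other 4 comparisons no neutrophil gene was called. The mean level of the 26 was 0.57 to 0.99 in carcinomas, 0.54 to 1.74 in high-risk papillomas, -0.08 to 1.89 in low-risk papillomas and -0.08 to 0.74 in normal skin. That of 13 macrophage and monocyte markers was -0.41 to 0.42 in carcinomas, -1.14 to -0.21 in high-risk papillomas, -1.74 to 0.88 in low-risk papillomas and -0.65 to -0.26 in normal skin, with no marker called in carcinomas against low-risk papillomas, where Ltf had its widest difference. The macrophage means averaged -0.18 in carcinomas and -0.73 in low-risk papillomas, the direction of Ltf. Over 29 replicates, which share group and array set, Ltf followed them with a Pearson's r of 0.644, given as a description. Its r was 0.057 with the mean of the neutrophil genes and 0.494 with that of 10 fibroblast and endothelium markers. Those markers also averaged higher in carcinomas, at -0.42, than in low-risk papillomas, at -0.98. With the means of keratinocyte markers, sebocyte markers and inducers of epithelial antimicrobial genes its r was -0.538, -0.575 and -0.588. Over 31 replicates, Pearson's r with the macrophage and neutrophil means was 0.655 and 0.415 for Pglyrp1. It was -0.356 and -0.497 for Camp and 0.259 and -0.274 for Lcn2. The part of neutrophil or macrophage content in any member's difference was not tested.

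Of 18 partners and receptors of the member proteins, 1 was called higher and 1 lower in low-risk papillomas against normal skin (7.55% of all probes): Ctsg, a target of Slpi, as above, and Fpr2, a receptor for cathelicidin peptides, at -1.52 ± 0.47 (SE). Fpr2 was also lower in high-risk papillomas against normal skin (5.01%), at -2.03, and in the other 4 comparisons none was called.

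Of 27 inducers of epithelial antimicrobial genes, 2 were lower in carcinomas against low-risk papillomas, where 1.12% of all probes were called. They were Il1f6 (interleukin 36 alpha) at -2.46 ± 0.52 (SE) and Il17a at -2.01 ± 0.42, with limma adjusted p of 0.0184 and 0.018. Neither passed with quantile normalization, with adjusted p of 0.0537 for Il1f6 and 0.0888 for Il17a, or with scale normalization, with 0.0858 and 0.157. In low-risk papillomas against normal skin (7.55%) Il1b was higher by 3.84 and Il1f6 by 2.16, and Il1r1, the interleukin 1 receptor, was lower at -0.67. In high-risk papillomas against normal skin (5.01%) Il1b was higher by 2.97, Tgfa by 1.19 and its receptor gene Egfr by 0.92. Il17a was lower at -1.50 in high-risk against low-risk papillomas (0.667%), and the receptor-associated kinase gene Irak1 was lower at -1.65 in carcinomas against high-risk papillomas (0.0423%) and at -1.60 against normal skin (1.16%).

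These 34 calls of genes outside the members all kept their direction, and 31 their call, without normal skin 1 and carcinoma 6. Those lost were Hamp in both comparisons between tumour groups and Il17a in high-risk against low-risk papillomas. With a block for the array set all 34 kept their direction and 1 its call, S100a9 in high-risk papillomas against normal skin. Over all probes the block fit made only 0 to 12 calls per comparison. With quantile normalization 23 kept their call and with scale normalization 20, all 34 in the same direction. Both normalizations lost Hamp, Il1f6, Il17a and Lyz1 in carcinomas against low-risk papillomas, Hamp and Il17a in high-risk against low-risk papillomas, Ctsg, Stfa3, Wfdc12 and Il1r1 in low-risk papillomas against normal skin, and Stfa3 in high-risk papillomas against normal skin. Scale normalization also lost Stfa1 and Il1f6 in low-risk papillomas and Irak1 in carcinomas, each against normal skin.

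The profiles most like each member's were ranked by Pearson's r over at least 25 shared replicates, a description in which the points share group and array set. For Defb3 they were Prg3 (r = 0.895), Bpifa2 (r = 0.89) and Serpinb3a (r = 0.874), each over 28 replicates and among 10353 genes compared. Slpi was most like Olfr29-ps1 (r = 0.922), Hexa (r = 0.868) and Ndufa4 (r = 0.857). For Lcn2 they were Tex10 (r = 0.916), Scarb1 (r = 0.876) and Pgs1 (r = 0.871), and for Ltf Mgat3 (r = 0.869), Ndufaf3 and Gm20815 (both r = 0.846). Camp was most like Sgk3 (r = 0.867), Gm7426 (r = 0.841) and Zdhhc21 (r = 0.794), and Pglyrp1 most like Nefh (r = 0.834), Noxo1 (r = 0.829) and Arl3 (r = 0.817). Members were left out of the genes compared, so likeness between members was not ranked.

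In the papillomas of unknown risk, on the second design, Defb3 had lowest, median and highest levels of 1.70, 5.91 and 7.59 in the 8 of 10 samples with a value. Slpi ran between -0.31 and 5.77 with a median of 4.76, above 0 in 9 of 10. Lcn2 ran between -4.64 and 0.88 with a median of -3.20, below 0 in 9 of 10. Ltf had 9 values between -4.33 and 1.72 with a median of -1.60, 4 above 0 and 5 below. Camp ran between -1.14 and 0.56 around a median of -0.35, Pglyrp1 between -0.17 and 2.65 around 1.61, and Defb1, measured in all 10, between -0.73 and 2.56 around 1.35. The designs were not compared with each other, since their probes and scale differ and the risk of these papillomas is not given.

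**Figure D3:**
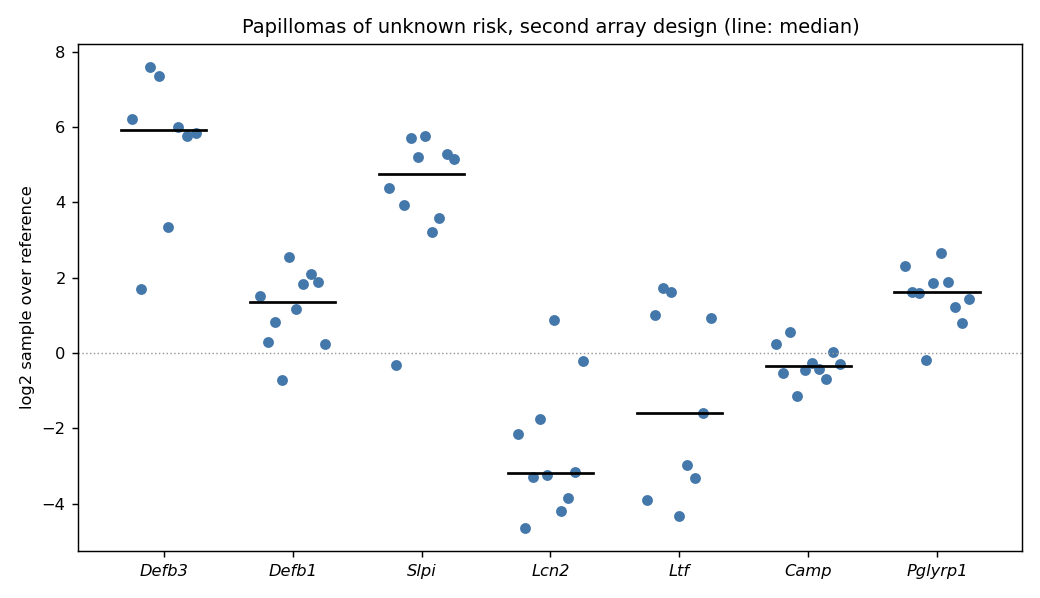
The log2 ratio of sample over reference (y axis) of each of the 7 genes (x axis) in the 10 papillomas of unknown risk, with 1 point per sample with a value and a line at the median. Defb3 and Slpi have the highest medians, 5.91 and 4.76, and Lcn2 the lowest, -3.20.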

How the data were processed

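The authors deposited a log ratio of both channels for each probe, treated here as log2. Their normalization, spot filters, log base and direction are not given in the sources used here. Base 2 was inferred because the largest size, 15.02, exceeds what another base allows with a 16-bit scanner. Cy5 over Cy3 is the likely direction: on 31 of the 32 labelled arrays, with the sample in Cy3 per the labels, the median of 11 keratinocyte marker probes was below 0 and that of 22 internal-organ probes above 0, and on the swapped array both were reversed. The organ genes were listed after the files were seen.

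All arrays but the swapped one were negated and each was centred on its median. Probes were named from the platform annotation (first design: 16076 with 1 symbol, 288 with several, 5633 with none). A probe was tested with at least 3 values in every group and in 70% of 31 replicates, 1 probe per symbol, the one with most values, which left 18904. The 4 groups were fitted together with limma 3.58.1 (R 4.3.3), with Benjamini-Hochberg adjustment over all probes and a threshold of 0.05, after testing on simulated data. Fits without a replicate asked for 1 value fewer per group, and fits within a set for 70% of its arrays. Block fits tested each comparison as its own coefficient. Exact permutation tests used SciPy 1.17.1 (Python 3.11.15). The labels name separate tumours but some codes are shared, so p-values measure the spread between these samples, and the number of arrays limits precision. The members and lists were chosen with earlier results of these data known. Named were all members, of each other list every called gene (at most 6 a comparison), and the 3 genes most like each member. Defb4 was named after its value was seen.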

Additional observations from a re-analysis of the deposited data

Results flagged for a closer look

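Of the 27 gene-by-group sets of 4 to 10 values, 3 held a sample far from the others by Dixon's criterion, where chance flags about 1 in 20. Defb3 stood at 0.434 in low-risk papilloma 2, where the other 8 low-risk papillomas ran between 4.56 and 6.50, and Slpi in the same papilloma was at 3.17, within its group. Defb3 stood at 2.921 in normal skin 1, where the other 4 measured normal skins ran between -0.28 and 0.05. Slpi stood at 3.796 in normal skin 1, where the other 4 ran between -1.02 and 0.20. Normal skin 1 is the array whose values nearly match those of carcinoma 6, which had Defb3 at 2.95 and Slpi at 4.58.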

How the results depend on the processing

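Of 19 settings other than leaving out 1 replicate, these moved the number of members called. In carcinomas against low-risk papillomas, with 1 call, the count was 0 with scale normalization, with a block for the array set, when the swapped array was left out, with the replicate block and among probes measured in every replicate, where Defb3, Slpi and Ltf could not be tested. It was 2 with the swapped array as a tumour of its own or with the shared code as a random block, and 3 with array weights. In carcinomas against high-risk papillomas, with no call, it was 1 within set D, which holds 1 high-risk papilloma. In high-risk against low-risk papillomas, with no call, it was 1 with scale or quantile normalization and 2 with array weights. In low-risk papillomas against normal skin, with 2 calls, it was 4 with quantile normalization and 0 with a block for the array set, among probes measured in every replicate, and within set D, where Defb3, Slpi and Ltf had no normal skin value and could not be tested. In high-risk papillomas against normal skin, with no call, it was 1 with the replicate block, with array weights and within set A, where it rests on 1 high-risk papilloma, and 2 without normal skin 1 and carcinoma 6. In carcinomas against normal skin, with no call, it was 1 with quantile normalization or without that pair, and 4 with array weights. The calls over all probes moved too. Array weights called 3454 of 18904 there, against 219 in the fit of all arrays. Quantile normalization called 890 and the fit without the pair 488 of 18612. In carcinomas against low-risk papillomas array weights called 1546 against 212. In high-risk against low-risk papillomas array weights called 1250 against 126, where scale and quantile normalization called fewer, 37 and 65. In high-risk papillomas against normal skin array weights called 3961 against 948. An unchanged count of members called did not always mean the same genes. In carcinomas against low-risk papillomas Defb3 passed in 11 of the 16 settings that tested it and Ltf in 4. In low-risk papillomas against normal skin Defb3 passed in 14 of 15 and Slpi in 13. With scale normalization Slpi was lost there and Lcn2 gained. Leaving out each replicate in turn gave 0 to 2 calls in carcinomas against low-risk papillomas, 2 to 2 in low-risk papillomas against normal skin, 0 to 2 in high-risk papillomas against normal skin and 0 to 1 in carcinomas against normal skin. Replicate numbers did not pair the samples, as the median r of deviations was -0.02 for 37 same-numbered pairs and 0.01 for 317 others. With the replicate block Defb3 had an adjusted p of 0.0699 in carcinomas against low-risk papillomas and of 0.0414 in high-risk papillomas against normal skin. Directions turned in these cases, and the causes were not tested. With quantile and scale normalization Slpi was 0.41 and 0.46 in carcinomas against low-risk papillomas, and Pglyrp1 -0.11 and -0.13 in high-risk against low-risk papillomas. Lcn2 was 0.45 in high-risk papillomas against normal skin (quantile) and -0.12 in carcinomas against normal skin (scale). With the set as a block Lcn2 was -0.46 in carcinomas against high-risk papillomas, 0.28 in high-risk against low-risk papillomas, against normal skin -0.37 in carcinomas, 0.0819 in high-risk and -0.20 in low-risk papillomas, Ltf 0.31 in high-risk papillomas against normal skin and Defb3 -1.21 in carcinomas against normal skin. With the replicate block Lcn2 was 0.0853 in carcinomas against low-risk papillomas. With array weights Lcn2 was -0.0313 in carcinomas against high-risk papillomas and 0.72 in high-risk papillomas against normal skin, and Ltf there 0.51. Ltf there was 0.17 without normal skin 1, with or without carcinoma 6, and 3.21 within set A. Over fits without 1 replicate Pglyrp1 in high-risk against low-risk papillomas ran between -0.0621 and 0.18, below 0 without low-risk papilloma 2 or 8 or high-risk papilloma 7, and Ltf in high-risk papillomas against normal skin between -0.87 and 0.17. Within set C, which holds normal skin 1, carcinomas against high-risk papillomas gave Lcn2 -0.77, Camp 0.0175, Defb3 1.52 and Pglyrp1 -0.15. High-risk papillomas against normal skin there gave Lcn2 1.47, Defb3 -1.97, Slpi -3.26, Fpr2 0.15, S100a8 -0.58, Cxcl14 0.0085, Il1b -0.33, Stfa1 -0.57, Stfa3 -1.55 and Tgfa -0.30, and carcinomas against normal skin Defb3 -0.45, Ltf -0.96 and Slpi -0.92. Within set D Lcn2 was -0.22 in carcinomas against high-risk papillomas, 0.057 in high-risk against low-risk papillomas, and -0.37 and -0.53 in low-risk papillomas and carcinomas against normal skin. High-risk against low-risk papillomas there gave Camp 0.26, Defb3 0.36, Hamp 1.84 and Il17a 0.48, and Defb12 was -0.71 in high-risk papillomas against normal skin. A set holds 1 to 4 samples of a group, so these values rest on few arrays.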
